A study of Mus musculus with 30 samples.

Results

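The cultures described here are 6 of the 30 arrays of a study of mouse splenic B cells. They are the day 3 and day 1 cultures in which the transcription factor Irf4 was switched on by a high dose of doxycycline, with 3 arrays per day, picked by their sample titles. The question was how transcript levels moved between these days while Irf4 was held high by the drug. High DOX cells came from Irf4-/- mice carrying a doxycycline-inducible Irf4 gene and were stimulated for 3 days or 1 day with 100 ng/mL doxycycline. The same pair of days was used for comparison in low DOX cells (the same genotype, 16 ng/mL), in zero DOX cells (the same genotype, no drug) and in wild-type cells (Irf4+/+, no drug), again with 3 arrays per group. All of these were resting mature B cells of the C57BL/6, B1-8i background, and all were stimulated with IL-2, IL-4, IL-5 and CD40 ligand. Per the series text, replicates were different mice, and 1 replicate in 3, which is not named, was handled on a separate occasion. The labels give neither the promoter that drives the inducible gene nor whether cultures of different days and doses came from the same mice.

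Irf4 is a transcription factor that acts in B cells according to its amount. At low levels it serves activated and germinal centre B cells together with Ets partners such as PU.1 and Spi-B, and sustained high levels go with the plasma cell programme, in which Prdm1 (Blimp-1) shuts down B cell genes and Xbp1 enlarges the secretory apparatus. A plasma cell makes immunoglobulin at a rate that calls on the whole secretory pathway, which runs by way of the translocon of the endoplasmic reticulum (ER), chaperones, glycosylation, disposal of misfolded chains and vesicle transport to the Golgi.

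Levels are given as log2(intensity + 16), each gene read by its probe set of highest mean, and differences are log2 values of day 3 minus day 1 with the standard error (SE) from a linear model in limma. Levels under 7.67, the median of the whole table on this scale, are dim, and the added 16 shrinks differences there. Of the 2 probe sets for Irf4, the set that followed doxycycline stood at 13.66, 13.56 and 13.53 on the day 3 arrays, against 13.10, 12.68 and 12.85 on the day 1 arrays. All 3 day 3 arrays lay above all 3 of day 1 (difference 0.71, SE 0.62, adjusted p = 0.38 in the model of all 30 arrays). The same set averaged 13.01 ± 0.076 in low DOX, 7.50 ± 0.17 in zero DOX and 7.32 ± 0.081 in wild-type cells at day 3 (SD, n = 3 each), a level in wild type at which it does not register the normal gene. At day 1 it went against the label on 1 zero DOX array and 1 low DOX array, both numbered replicate 2, and the group means there were 8.80 ± 1.70 and 9.92 ± 1.94 (SD, n = 3 each). Without these 2 arrays the same difference of 0.71 had SE 0.11 and adjusted p = 1.0e-05. The other set stood at 11.27, 11.31 and 11.00 at day 3, against 11.71, 11.84 and 11.56 at day 1, and fell by 0.51 (adjusted p = 0.0019). It was as bright in zero DOX cells, which are Irf4-/- and had no drug by their labels, at 11.10 ± 0.29 at day 3 and 12.05 ± 0.13 at day 1 (SD, n = 3 each), so it is no measure of functional Irf4.

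The 6 arrays were alike in quality. Their median intensities lay between 182 and 194. Each array's lowest correlation with another of its group was 0.988 to 0.991 over the 12183 genes tested. The 3' minus 5' log2 difference was 0.117 to 0.272 for Actb and -0.057 to -0.0019 for Gapdh. Array weights ran from 0.612 to 2.62. Replicate 3 differed from the others in sex-linked transcripts. Xist, a transcript of female cells, stood at 12.02 at day 1 and 12.53 at day 3 on replicate 3. On replicates 1 and 2 it stood at 6.50 and 6.36 at day 1 and 6.33 and 6.46 at day 3. In wild type it stood at 12.28, 12.23 and 12.22 at day 1 and 12.45, 12.34 and 12.52 at day 3. The part of sex in the differences below was not tested. In a transcript profile of a whole culture, fewer cells of a type and less RNA per cell cannot be told apart.

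Of 12183 genes tested, 6088 (50%) passed an adjusted p of 0.05 between the days, 2800 (23%) higher and 3288 (27%) lower at day 3. At least 2-fold changes were fewer: 351 genes (2.88%) were higher and 167 (1.37%) lower by that much. In 3312 genes (27.2%) all 3 day 3 arrays lay above all 3 day 1 arrays, and in 3701 (30.4%) they lay below. The median difference over all genes was -0.011. With so many genes past the threshold, the gene lists below are read against these shares.

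**Figure D1:**
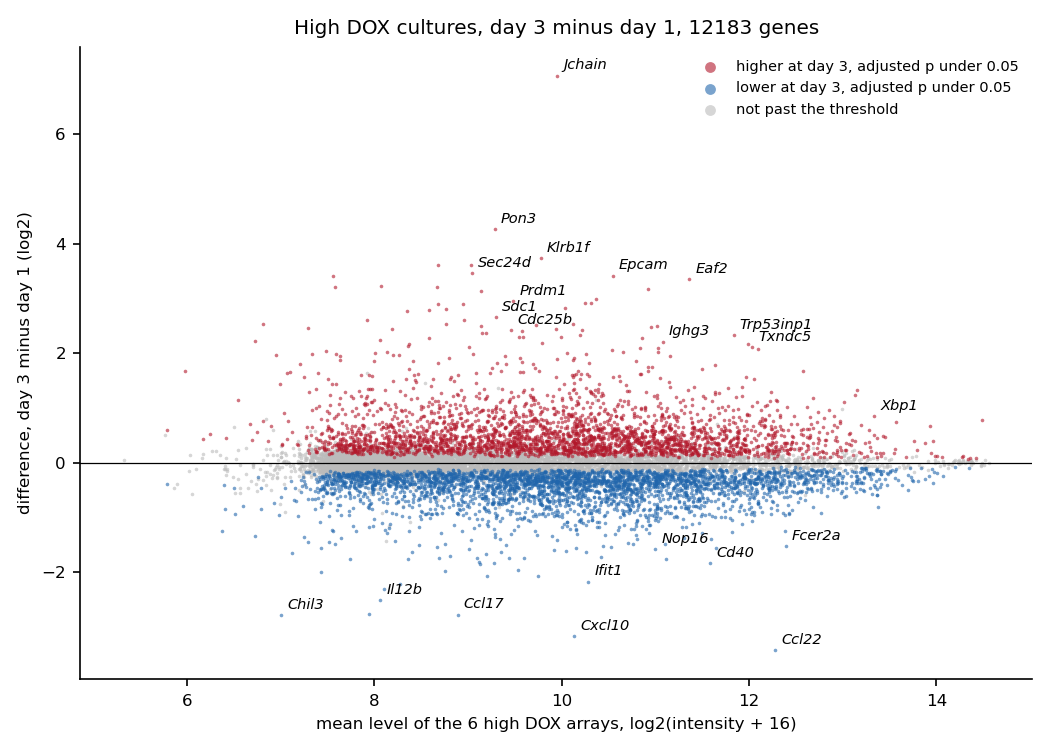
Difference between day 3 and day 1 of the high DOX cultures (vertical axis, log2) against the mean level of the 6 arrays (horizontal axis, log2(intensity + 16)), 1 point per gene for 12183 genes. Jchain stands apart at 7.07, and the lowest labelled gene is Ccl22 at -3.42.

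Plasma cell genes rose in nearly every case. Of 29 tested plasma cell regulators and markers (of 32 listed), 27 rose and 1 fell, with a median difference of 1.97. Jchain, which encodes the peptide that joins IgM and IgA into polymers, stood at 13.53, 13.62 and 13.31 at day 3, against 6.19, 6.80 and 6.27 at day 1. It was dim on every day 1 array and bright on every day 3 array (7.07, SE 0.31, adjusted p = 1.1e-14). Prdm1, the Blimp-1 repressor that ends the B cell programme, stood at 11.07, 11.01 and 10.80 at day 3, against 8.10, 8.06 and 7.86 at day 1 (2.95, SE 0.20, adjusted p = 1.3e-11). Bhlha15 (Mist1), a factor of secretory cells downstream of Xbp1, stood at 10.96, 10.95 and 10.63 at day 3, against 7.32, 7.36 and 7.02 at day 1 (3.61, SE 0.16, adjusted p = 1.1e-14). The arrays of the 2 days were far apart in each of these genes and close together within a day, but a dim second set of Bhlha15 did not pass (-0.16). Xbp1 was already bright at day 1, at 13.77, 13.76 and 13.75 at day 3, against 12.87, 12.90 and 12.97 at day 1 (0.85, SE 0.08, adjusted p = 2.9e-09), and of its 4 tested probe sets 3 rose, by 0.20 to 1.10 over the 4.

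Among surface molecules of plasma cells, Sdc1 (syndecan-1), the usual sorting marker, stood at 10.70, 10.59 and 10.59 at day 3, against 8.20, 7.74 and 7.96 at day 1 (2.66, SE 0.15, adjusted p = 8.8e-13). Of its 4 tested sets 3 rose, with differences of 0.10 to 2.66 over the 4. Epcam, an adhesion molecule, was higher still, at 12.36, 12.15 and 12.25 at day 3, against 9.01, 8.33 and 9.17 at day 1 (3.42, SE 0.20, adjusted p = 9.8e-13). Tnfrsf17 (BCMA), the APRIL and BAFF receptor of plasma cells, rose by 1.97, Cd93 by 2.78, Cd28 by 2.01, and Tnfrsf13b (TACI) by 0.50. In Sdc1 and Epcam the days did not overlap, and the 3 day 3 arrays lay close together. The elongation factors that act on immunoglobulin transcripts moved as well. Eaf2, a partner of the Ell factors, stood at 12.97, 12.96 and 13.18 at day 3, against 9.75, 9.52 and 9.80 at day 1 (3.35, SE 0.18, adjusted p = 4.4e-13), and Ell2, which favours the secreted form of the heavy chain, at 12.46, 12.47 and 12.46 at day 3, against 11.21, 11.01 and 11.07 at day 1 (1.37, SE 0.08, adjusted p = 1.1e-12). Rises were also seen in Tent5c (2.92), a poly(A) polymerase that stabilises transcripts of secreted proteins, Slpi (3.17), a secreted protease inhibitor, Creb3l2 (0.45), a membrane-bound factor of the secretory pathway, and Mzb1 (0.74), an ER protein of antibody-forming cells. Ly6k was the member that fell (-1.58, adjusted p = 0.024), and Zbtb20 did not pass (0.10, adjusted p = 0.5).

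Of the immunoglobulin constant genes, 3 of 11 listed were tested, and 2 rose. Ighg3, the IgG3 heavy chain, stood at 12.22, 12.33 and 12.01 at day 3, against 10.00, 10.20 and 9.71 at day 1 (2.21, SE 0.26, adjusted p = 1.6e-07). Ighm, the IgM heavy chain, was near the top of the scale on both days at 14.90, 14.89 and 14.83 at day 3, against 14.13, 14.18 and 13.96 at day 1 (0.78, SE 0.09, adjusted p = 3.5e-08), and all 9 of its tested probe sets rose, by 0.78 to 2.64. Igha did not pass in any of its 3 sets (-0.084 to 0.077). Ighg1 matched no tested gene and is not described.

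**Figure D2:**
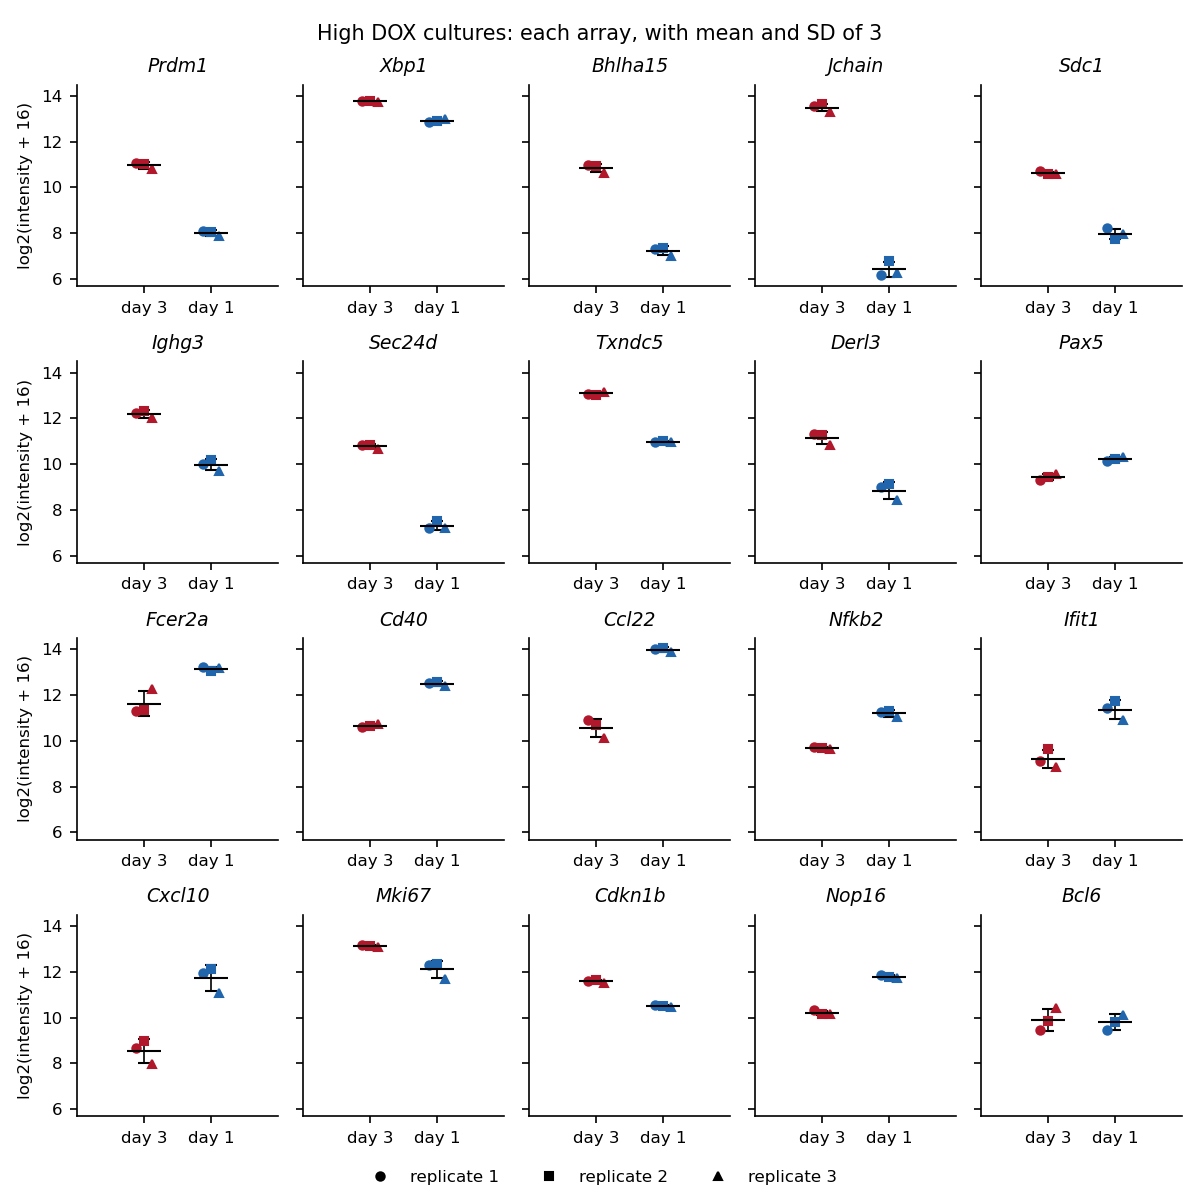
Levels of 20 genes on each high DOX array (points, 1 shape per replicate number), with the mean and SD of 3 arrays, day 3 left and day 1 right, on the scale log2(intensity + 16). Jchain spans the scale between the days, while Bcl6 overlaps.

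The secretory pathway rose from its entry to the Golgi. At the translocon and signal peptidase, 20 of 22 tested genes rose and the others did not pass (median 0.59). Tram2, which helps chains through the translocon, stood at 11.93, 11.89 and 11.77 at day 3, against 8.88, 8.99 and 8.74 at day 1 (3.00, SE 0.12, adjusted p = 4.8e-15). A dim second set of Tram2 did not pass (0.11). Spcs3 and Sec11c, subunits of signal peptidase, rose by 0.99 and 0.86, Sec63, the partner that recruits the BiP chaperone to the channel, by 0.97, and Sec61a1, the channel itself, by 0.70. All 4 Ssr genes of the translocon-associated complex rose, by 0.53 to 0.80. The signal recognition particle moved least: Srp9, Srp72 and Srp68 rose by 0.32, 0.23 and 0.15, and Srp19 (0.08) and Srp14 (-0.09) did not pass.

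ER chaperones and disulfide enzymes rose in 20 of 25 tested genes, and the other 5 did not pass (median 0.56). Fkbp11, a prolyl isomerase of the ER, stood at 10.39, 10.44 and 10.37 at day 3, against 7.20, 7.40 and 7.90 at day 1 (2.90, SE 0.19, adjusted p = 7.6e-12). Txndc5, a disulfide isomerase, stood at 13.08, 13.03 and 13.16 at day 3, against 10.98, 10.99 and 10.96 at day 1 (2.11, SE 0.07, adjusted p = 1.1e-16). In both genes every day 3 array exceeded every day 1 array, and a second set of Fkbp11 did not pass (0.08). Txndc11 rose by 1.91, Dnajb9 (ERdj4) by 0.99, Dnajc3 (p58IPK) by 0.89, Creld2 by 0.83, Pdia4 by 0.79 and Hsp90b1 (Grp94) by 0.50. The classical chaperones moved little. Hspa5 (BiP) stood at 13.89, 13.84 and 13.79 at day 3, against 13.76, 13.74 and 13.66 at day 1 (0.12, SE 0.06, adjusted p = 0.11), with days that did not overlap, and it passed when the replicate number was fitted as a block (adjusted p = 0.047). Of its 2 other sets, 1 rose (0.19, adjusted p = 0.03 over all sets) and 1 did not pass (-0.10). Calr (0.10, adjusted p = 0.31) and Canx (0.03, adjusted p = 0.78), the lectin chaperones calreticulin and calnexin, did not pass.

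ER-associated degradation, which draws misfolded chains back to the cytosol, rose in 15 of 18 tested genes and fell in 2 (median 0.51). Derl3, a derlin of the export channel, stood at 11.30, 11.28 and 10.83 at day 3, against 8.98, 9.14 and 8.42 at day 1 (2.29, SE 0.31, adjusted p = 9e-07). The mannosidase-like Edem2, Edem3 and Edem1, which mark glycoproteins for disposal, rose by 1.61, 1.39 and 1.06. The lectins Erlec1 and Os9 rose by 1.05 and 0.98, and Sel1l and Syvn1, the core of the ubiquitin ligase, by 0.75 and 0.44. The members that fell were Vcp (-0.17) and Nploc4 (-0.27), parts of the cytosolic ATPase that pulls chains out and also works elsewhere in the cell. The proteasome, at the end of that route, went the other way. Of 26 subunit genes, 25 fell and 1 rose (median -0.35), with Psmd1 at -0.58 and Psmc5 at -0.55, and Psmb1 as the member that rose (0.11). This fall was not particular to high DOX. In wild type, zero DOX and low DOX 25 of 26 fell as well (medians -0.46, -0.47 and -0.31).

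Promoters of 9852 of the 12183 genes were matched by symbol to RefSeq (GRCm38.p6), each as 250 bases before and 50 bases after the gene start. They were searched on both strands for the ER stress response element, which is CCAAT, then 9 bases of any kind, then CCACG, the site at which NF-Y and the factors Atf6 and Xbp1 are known to meet. It was found in 15 promoters (0.152%), of which 7 were among 22 chaperone list promoters (31.8%) and 2 among 14 degradation list promoters (14.3%). Among those 9 genes, Derl3, Dnajc3, Creld2, Hsp90b1, Pdia6 and Syvn1 rose, and Hspa5, Calr and Canx did not pass. The 6 risen genes are shown because they carry the element and also passed the test. Each line runs 5′ to 3′ on the gene's strand, with the fixed letters of the element in capitals, and where it lies on the opposite strand (Derl3 and Creld2) it reads in reverse complement. Hsp90b1 holds 2 matches in the window, of which 1 is marked.
Derl3, chr10:75893212-75893290 (+ strand), rise 2.29: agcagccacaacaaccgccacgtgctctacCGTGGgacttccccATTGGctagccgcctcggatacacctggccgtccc
Dnajc3, chr14:118937797-118937875 (+ strand), rise 0.89: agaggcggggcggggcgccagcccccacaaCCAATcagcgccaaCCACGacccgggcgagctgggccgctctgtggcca
Creld2, chr15:88819490-88819568 (+ strand), rise 0.83: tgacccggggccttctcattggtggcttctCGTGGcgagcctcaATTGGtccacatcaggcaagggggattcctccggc
Hsp90b1, chr10:86705608-86705686 (- strand), rise 0.50: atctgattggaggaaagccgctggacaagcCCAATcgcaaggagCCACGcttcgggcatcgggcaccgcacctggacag
Pdia6, chr12:17266461-17266539 (+ strand), rise 0.46: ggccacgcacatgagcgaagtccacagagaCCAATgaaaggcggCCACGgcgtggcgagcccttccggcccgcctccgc
Syvn1, chr19:6046502-6046575 (+ strand), rise 0.44: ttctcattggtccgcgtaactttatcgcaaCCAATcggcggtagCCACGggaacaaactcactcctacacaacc
The match began 156, 105, 126, 212, 98 and 44 bases before the gene start in these 6 genes. The element was also in the promoters of Adcy3, Alg12, Ero1b, Pan2, Spats2l and Zfp57, which are in neither list. Over all genes it was in 7 of 2270 that rose (0.308%) and in 1 of 2726 that fell (0.0367%).

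Glycosylation moved both ways. Of 37 N-glycosylation genes, 19 rose and 9 fell (median 0.21). Most subunits of the oligosaccharyltransferase, the enzyme that puts the finished glycan on the chain, were among the risers. Rpn2 stood at 12.23, 12.12 and 12.03 at day 3, against 11.31, 11.22 and 11.14 at day 1 (0.90, SE 0.07, adjusted p = 7.6e-11), and Krtcap2, Ostc, Stt3a, Ddost and Rpn1 rose by 0.54 to 0.88, while Stt3b (-0.05, adjusted p = 0.5) and Tusc3 (-0.02, adjusted p = 0.88) did not pass. Those that fell were enzymes that build the lipid-linked glycan or its sugar donors, such as Alg3 (-0.65, adjusted p = 5.1e-07) and Gmppb (-0.28, adjusted p = 0.0032), and Mogs (-0.49, adjusted p = 9.2e-07), the first trimming glucosidase, although others of the building steps, such as Gmppa (0.68) and Alg5 (0.64), rose. Transport to and from the Golgi rose in 27 of 36 tested genes and fell in 2 (median 0.29). Sec24d, a cargo adaptor of COPII vesicles, stood at 10.84, 10.83 and 10.67 at day 3, against 7.23, 7.52 and 7.19 at day 1 (3.47, SE 0.14, adjusted p = 5.6e-15). Its relatives were unlike it: Sec24a rose by 0.90 and Sec24c by 0.25, whereas Sec24b fell by 0.31. Lman1 (ERGIC-53), a lectin cargo receptor, stood at 11.67, 11.60 and 11.61 at day 3, against 10.66, 10.50 and 10.71 at day 1 (1.00, SE 0.08, adjusted p = 4.4e-10), and Surf4 and Kdelr1, the receptor that returns ER proteins, rose by 0.86 and 0.84. Sar1a, the GTPase that starts COPII coats, fell by 0.23.

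Several of the largest rises lay outside these lists. Pon3, a lactonase of the paraoxonase family, stood at 11.37, 11.47 and 11.41 at day 3, against 7.10, 7.49 and 6.88 at day 1 (4.26, SE 0.23, adjusted p = 3.8e-13). Klrb1f, a lectin-like receptor of the NK gene complex, stood at 11.76, 11.58 and 11.59 at day 3, against 7.97, 7.74 and 7.99 at day 1 (3.74, SE 0.12, adjusted p = 3.2e-17). The day 3 values of each gene lay close together and far above those of day 1. Tg, known as the thyroid hormone precursor, stood at 10.76, 10.79 and 9.93 at day 3, against 7.10, 6.87 and 6.66 at day 1 (3.61, SE 0.19, adjusted p = 1.5e-13). Replicate 3 was the lowest at day 3 in Tg and also in Mpzl2, an adhesion molecule, which stood at 9.45, 9.44 and 8.70 at day 3, against 6.22, 5.88 and 5.83 at day 1 (3.22, SE 0.18, adjusted p = 3.6e-13). Another set of Mpzl2, which stands for the gene when no filter on dim sets is used, did not pass (0.14). Rgcc, a regulator of cell cycle progression, rose by 3.22, and Rhobtb1 by 3.21.

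B cell identity genes did not move as a block: of 27 tested, 10 rose, 6 fell and 11 did not pass (median 0.06). Fcer2a (CD23), the low-affinity IgE receptor of follicular cells, stood at 11.30, 11.34 and 12.25 at day 3, against 13.22, 13.06 and 13.18 at day 1 (-1.52, SE 0.20, adjusted p = 6.4e-07). Replicate 3 was the highest of the day 3 arrays and still below all of day 1. Cr2 (CD21), the complement receptor, fell by 1.15 (adjusted p = 1.6e-06). Pax5, the factor that holds B cell identity and a known target of Blimp-1, stood at 9.32, 9.44 and 9.55 at day 3, against 10.13, 10.22 and 10.31 at day 1 (-0.78, SE 0.10, adjusted p = 7.1e-07), and its other tested set did not pass (-0.17). Ciita, the master factor of MHC class II and also a known Blimp-1 target, stood at 10.08, 10.53 and 10.76 at day 3, against 10.59, 11.00 and 10.94 at day 1 (-0.39, SE 0.13, adjusted p = 0.016), with overlapping arrays. That call was lost in 4 of the alternative fits, among them without the day 3 array of replicate 1 (-0.20, adjusted p = 0.19), and neither of its 2 other sets passed. Of 13 class II list members, Ciita fell and the other 12 did not pass (list median -0.05). Ebf1 (-0.04, adjusted p = 0.75) and Spib (-0.15, adjusted p = 0.14) did not pass. Cd24a, a surface glycoprotein, rose by 1.34, Ikzf3 (Aiolos) by 1.29, and Foxo1 by 0.64.

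Of 19 germinal centre genes, 8 rose and 2 fell (median 0.17). Bcl6, the repressor that defines the germinal centre programme, stood at 9.46, 9.86 and 10.41 at day 3, against 9.47, 9.82 and 10.13 at day 1. The arrays of the days lay over each other, and neither of its 2 sets passed (0.10, adjusted p = 0.71). Bach2, which delays plasma cell formation, stood at 12.12, 12.12 and 12.15 at day 3, against 11.72, 11.65 and 12.03 at day 1 (0.33, SE 0.14, adjusted p = 0.046), a call that was lost in 7 of the alternative fits. Pou2af1 (OBF-1), the octamer coactivator that plasma cells keep, stood at 13.51, 13.53 and 13.56 at day 3, against 12.78, 12.82 and 12.94 at day 1 (0.69, SE 0.06, adjusted p = 4.7e-10). Fas and Cd86 were the members that fell: Fas stood at 9.04, 9.37 and 9.11 at day 3, against 10.12, 10.05 and 9.58 at day 1 (-0.74, SE 0.13, adjusted p = 2.8e-05), and Cd86 at 10.20, 10.46 and 10.05 at day 3, against 11.13, 11.18 and 10.59 at day 1 (-0.73, SE 0.19, adjusted p = 0.0023). Of 13 follicular and recirculation genes, 7 rose, 5 did not pass and Fcer2a, described above, fell. Ccr7, Cxcr4 and Ccr6, which steer cells in lymphoid tissue, rose by 0.84, 0.97 and 1.12, and S1pr1, the egress receptor, by 0.50.

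Genes of CD40 and NF-kB signalling fell in 18 of 27 tested cases and rose in 5 (median -0.51). Ccl22, a chemokine that draws T cells through CCR4, stood at 10.90, 10.69 and 10.11 at day 3, against 14.03, 14.06 and 13.87 at day 1 (-3.42, SE 0.33, adjusted p = 4.1e-09), the largest fall among named genes. Ccl17, its close relative, stood at 7.57, 7.91 and 7.04 at day 3, against 10.36, 10.46 and 10.00 at day 1 (-2.77, SE 0.32, adjusted p = 1.1e-07). In both genes every day 3 array was far under every day 1 array. Cd40, the receptor for the ligand in the medium, stood at 10.62, 10.66 and 10.72 at day 3, against 12.52, 12.59 and 12.39 at day 1 (-1.84, SE 0.11, adjusted p = 8.8e-13), and all 3 of its tested sets fell, by 1.79 to 1.91. Nfkb2, the p100 precursor of the pathway downstream of CD40, stood at 9.75, 9.68 and 9.63 at day 3, against 11.26, 11.29 and 11.04 at day 1 (-1.51, SE 0.09, adjusted p = 1.9e-12). Its partner Relb fell by 0.80, the adaptor Traf1 by 1.18, the feedback inhibitors Tnfaip3 (A20) by 0.68 and Nfkbia by 0.58, and the survival gene Bcl2l1 (Bcl-xL) by 0.92. Rel (0.07, adjusted p = 0.71) and Rela (-0.12, adjusted p = 0.11) did not pass. The members that rose included the lymphotoxins Ltb (1.18) and Lta (0.76). The fall of this list was not particular to high DOX. Of the 27 genes, 17 fell and 4 rose in wild type (median -0.49), and 17 fell and 3 rose in low DOX (median -0.43). In zero DOX 12 fell and 5 rose (median -0.15).

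The IL-4 and cytokine response was mixed, with 6 of 17 tested genes higher and 9 lower (median -0.24). Cish, a feedback inhibitor of cytokine receptors, stood at 10.39, 10.32 and 10.39 at day 3, against 11.77, 11.81 and 11.96 at day 1 (-1.48, SE 0.11, adjusted p = 6.7e-11). Socs1 fell by 0.86 and Il5ra, the IL-5 receptor, by 1.41, whereas Socs2 rose by 1.19 and Il2ra, a subunit of the IL-2 receptor, by 0.63. Inflammatory cytokines were also among the largest falls. Il12b, a subunit of IL-12, stood at 6.76, 6.90 and 6.77 at day 3, against 8.95, 9.49 and 9.49 at day 1 (-2.51, SE 0.26, adjusted p = 1.4e-08), and Il6 at 7.25, 7.52 and 6.74 at day 3, against 9.67, 9.59 and 8.89 at day 1 (-2.21, SE 0.31, adjusted p = 1.6e-06). Both were dim at day 3. Plxnd1, a semaphorin receptor, fell by 2.06, Nqo1, a quinone reductase, by 2.00, Esam, an adhesion molecule, by 1.97, and Adm, a vasoactive peptide, by 1.96.

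Interferon response genes fell in 20 of 33 tested cases and rose in 2 (median -0.40). Ifit1, which binds foreign RNA caps, stood at 9.11, 9.64 and 8.84 at day 3, against 11.43, 11.75 and 10.91 at day 1 (-2.17, SE 0.25, adjusted p = 8.5e-08). Cxcl10, an interferon-induced chemokine, stood at 8.67, 8.99 and 7.97 at day 3, against 11.97, 12.12 and 11.06 at day 1 (-3.17, SE 0.30, adjusted p = 4.8e-09). Ifih1 (Mda5), a sensor of double-stranded RNA, stood at 9.28, 9.75 and 9.29 at day 3, against 11.18, 11.41 and 10.62 at day 1 (-1.63, SE 0.19, adjusted p = 1.5e-07). Replicate 3 was the lowest of its group at both days in Ifit1 and Cxcl10, so the fall was seen against a level that differed between mice. Without the day 3 array of replicate 3 the list median was -0.29, with 17 members lower. Irf7, the factor that amplifies the response, fell by 0.94, Parp12 by 1.74 and Oasl1 by 1.53. Iigp1, an interferon-induced GTPase, went the other way, at 12.63, 13.16 and 12.45 at day 3, against 11.07, 11.74 and 10.75 at day 1 (1.56, SE 0.23, adjusted p = 3e-06), and Irf1 (0.17, adjusted p = 0.21) and Gbp2 (-0.14, adjusted p = 0.55) did not pass.

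The core of the interferon-stimulated response element, GAAA, then 2 bases of any kind, then GAAA, was found on either strand of 357 of 9852 promoters (3.62%) and of 13 of 25 interferon list promoters (52%), 9 of them among the 16 that fell (56.2%). The 1 list promoter whose gene rose held it as well. Over all genes it was in 82 of 2270 that rose (3.61%) and in 104 of 2726 that fell (3.82%). These sequences, of 4 genes that fell, show where the element lies. The capitals mark the fixed letters of 1 match in each. In Ifit1, Ifit3 and Rsad2 the match lies on the opposite strand and reads as a pair of TTTC. In Oas3 it reads as a pair of GAAA. Ifit1 and Ifit3 hold 2 matches in the window, and the other match is not marked.
Ifit1, chr19:34640755-34640824 (+ strand), difference -2.17: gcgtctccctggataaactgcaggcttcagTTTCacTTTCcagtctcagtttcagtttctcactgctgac
Ifit3, chr19:34583343-34583412 (+ strand), difference -1.32: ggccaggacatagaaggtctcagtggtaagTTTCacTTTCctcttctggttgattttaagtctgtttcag
Rsad2, chr12:26456533-26456602 (- strand), difference -0.86: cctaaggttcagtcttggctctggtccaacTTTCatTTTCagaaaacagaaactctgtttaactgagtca
Oas3, chr5:120777695-120777764 (- strand), difference -0.72: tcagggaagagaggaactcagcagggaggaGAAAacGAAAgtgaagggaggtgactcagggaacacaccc

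Proliferation genes were split between mitosis and S phase. Of 45 tested cell cycle and mitosis genes, 25 rose and 1 fell (median 0.47). Cdc25b, the phosphatase that starts mitosis, stood at 10.57, 10.65 and 10.80 at day 3, against 8.22, 8.27 and 8.26 at day 1 (2.42, SE 0.14, adjusted p = 1.3e-12). Mki67, the proliferation antigen, stood at 13.15, 13.13 and 13.09 at day 3, against 12.28, 12.35 and 11.67 at day 1 (1.02, SE 0.29, adjusted p = 0.0051). Its day 1 value was lowest on replicate 3, as were those of Cenpe, Cenpa and Ccnb2, which rose by 1.32, 1.19 and 1.13. Without the day 1 array of replicate 3 the list median was 0.34 and 20 members rose. Mybl2 (B-Myb), which acts from late G1 onwards, was the member that fell (-1.05, adjusted p = 2.3e-08). DNA replication genes went down: 30 of 45 tested fell and 1 rose (median -0.29). Pold2, a subunit of DNA polymerase delta, stood at 10.96, 10.87 and 10.99 at day 3, against 11.70, 11.69 and 11.77 at day 1 (-0.78, SE 0.06, adjusted p = 7.4e-11), and Orc2, Pola1 and Uhrf1 fell by 0.64, 0.61 and 0.68. Of the MCM helicase, Mcm2, Mcm3, Mcm4, Mcm5 and Mcm7 fell, by 0.28 to 0.47, and Mcm6 did not pass (-0.14, adjusted p = 0.11). The split was not particular to high DOX. In wild type 27 of the mitosis list rose and 4 fell, and 32 of the replication list fell and 5 rose. In low DOX 30 mitosis genes rose and 1 fell, and 20 replication genes fell and 3 rose. In zero DOX these counts were 8 and 4 for mitosis, and 34 and 2 for replication.

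The cell cycle homology region, TTTGAA, a promoter element known from genes of late cell cycle, was found on either strand of 1443 of 9852 promoters (14.6%) and of 24 of 37 promoters of the cell cycle list (64.9%), 16 of them among the 20 that rose. Over all genes it was in 344 of 2270 that rose (15.2%) and in 388 of 2726 that fell (14.2%). It is a short motif, and the CCAAT box known to accompany it was in 42.3% of all promoters and 75.7% of those of the list. The sequences of 4 risen genes are shown with 1 match in capitals, which in Ube2c lies on the opposite strand. Ccnb2 and Mki67 hold 2 matches in the window, and the other is not marked.
Ccnb2, chr9:70421686-70421751 (- strand), rise 1.13: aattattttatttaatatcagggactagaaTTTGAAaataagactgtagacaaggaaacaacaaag
Mki67, chr7:135716460-135716525 (- strand), rise 1.02: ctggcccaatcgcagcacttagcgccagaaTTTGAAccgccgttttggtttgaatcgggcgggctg
Ncapg, chr5:45669865-45669924 (+ strand), rise 0.85: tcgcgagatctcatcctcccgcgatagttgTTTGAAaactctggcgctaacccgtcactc
Ube2c, chr2:164769870-164769928 (+ strand), rise 0.80: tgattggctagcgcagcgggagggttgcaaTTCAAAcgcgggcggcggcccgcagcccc

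Several brakes on the cell cycle rose beside these genes. Trp53inp1, a p53 target, stood at 13.00, 13.12 and 12.88 at day 3, against 10.52, 10.75 and 10.74 at day 1 (2.33, SE 0.10, adjusted p = 1.1e-14). Cdkn1b (p27), an inhibitor of cyclin-dependent kinases, stood at 11.61, 11.65 and 11.53 at day 3, against 10.53, 10.51 and 10.47 at day 1 (1.09, SE 0.06, adjusted p = 1.3e-12), and Cdkn2d (p19) and Cdkn2c (p18) rose by 1.31 and 0.92. Cdkn2b (p15) fell, at 7.52, 7.66 and 7.26 at day 3, against 9.44, 9.45 and 8.82 at day 1 (-1.75, SE 0.22, adjusted p = 4.1e-07). The D cyclins and their kinases fell: Ccnd2 by 0.47, Ccnd3 by 0.37, Ccnd1 by 0.53, Cdk4 by 0.47 and Cdk6 by 0.86. Of 22 tested cyclins, inhibitors and p53 targets, 10 rose and 6 fell. In the Myc network, Myc stood at 11.37, 11.30 and 11.48 at day 3, against 11.62, 11.54 and 11.70 at day 1 (-0.24, SE 0.08, adjusted p = 0.013), while its antagonist Mxi1 stood at 10.19, 10.27 and 9.74 at day 3, against 7.98, 8.00 and 7.88 at day 1 (2.11, SE 0.14, adjusted p = 1.3e-11) and Mxd4 rose by 0.93.

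Ribosome biogenesis, a programme that Myc is known to drive, fell in all 34 tested genes (median -0.80), with arrays of the days apart in each of the 34. Nop16, a nucleolar assembly factor, stood at 10.32, 10.17 and 10.14 at day 3, against 11.86, 11.78 and 11.72 at day 1 (-1.58, SE 0.09, adjusted p = 5.6e-13). Rrp12 fell by 1.34, Rrp9 by 1.20 and Utp20 by 1.07, and the smallest fall of the list was that of Polr1c (-0.33). Class switch and DNA repair genes fell in 14 of 21 tested cases and rose in 3 (median -0.27). Xrcc5 (Ku80), which joins broken ends, stood at 8.51, 8.60 and 8.79 at day 3, against 10.01, 9.90 and 9.90 at day 1 (-1.30, SE 0.08, adjusted p = 1.3e-12), and Ung and Apex1, which act in base excision repair, fell by 0.89 and 0.93.

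**Figure D3:**
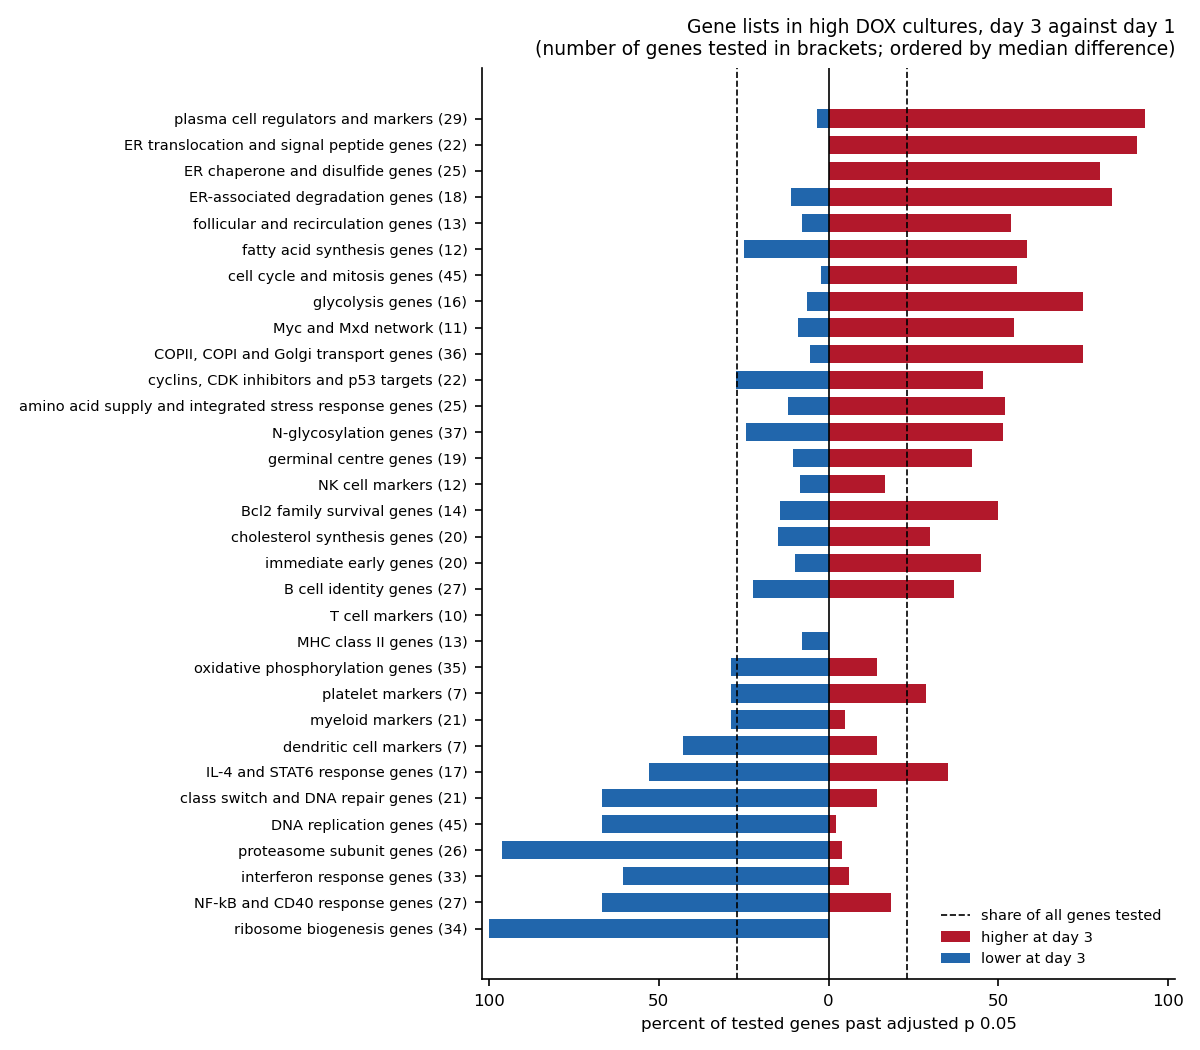
Share of each list's tested genes past an adjusted p of 0.05 between day 3 and day 1 of the high DOX cultures (bars to the right higher at day 3, bars to the left lower), for lists with 7 or more tested genes, ordered by median difference. Dashed lines mark the shares of all genes, 23% and 27%. Plasma cell genes stand at the top with 27 of 29 higher, and ribosome biogenesis at the bottom with 34 of 34 lower.

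Metabolic genes moved by branch. Glycolysis rose in 12 of 16 tested genes and fell in 1 (median 0.38). Aldoc, an aldolase, stood at 11.76, 11.55 and 11.80 at day 3, against 8.63, 8.79 and 8.96 at day 1 (2.91, SE 0.15, adjusted p = 1.2e-13). Pdk1, which keeps pyruvate out of mitochondria, rose by 1.49 and Pfkp, a phosphofructokinase, by 1.28, and the hexokinases Hk1 (-0.07, adjusted p = 0.53) and Hk2 (-0.13, adjusted p = 0.75) did not pass. Oxidative phosphorylation moved little, with 5 of 35 tested genes higher, 10 lower and all differences between -0.34 and 0.28. In fatty acid synthesis, 7 of 12 tested genes rose and 3 fell. The risers were desaturases and elongases, with Scd2 at 13.74, 13.75 and 13.77 at day 3, against 12.64, 12.51 and 12.38 at day 1 (1.25, SE 0.09, adjusted p = 3.3e-11), and the 3 that fell were the carriers and enzymes of the first steps, Slc25a1 (-0.58), Fasn (-0.63) and Acaca (-0.72). Cholesterol synthesis had 6 of 20 tested genes higher and 3 lower, with Idi1 falling by 0.92. Genes of amino acid supply and the integrated stress response rose in 13 of 25 cases and fell in 3. Chac1, a glutathione-degrading enzyme of that response, rose by 0.99, Asns, asparagine synthetase, by 0.69, and Ddit3 (CHOP) by 0.69, while Atf4 did not pass (-0.04, adjusted p = 0.68).

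In the Bcl2 family, 7 of 14 tested genes rose and 2 fell. Bcl2l11 (Bim), a promoter of cell death, stood at 11.97, 12.03 and 11.67 at day 3, against 9.79, 9.89 and 9.70 at day 1 (2.09, SE 0.14, adjusted p = 1.5e-11), and all 4 of its other sets passed the same way. Bid fell by 0.84, Mcl1, which plasma cells need to survive, rose by 0.32, and Bcl2 did not pass (-0.13, adjusted p = 0.39). Of 20 immediate early genes, 9 rose and 2 fell. Btg2, an antiproliferative gene, rose by 1.12, Egr3 by 1.02 and Fos by 1.00, while Dusp2, a phosphatase of MAP kinases, fell by 0.93. A second set of Egr3 did not pass (-0.07).

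Markers of other cell types were followed because the cultures began from B cells enriched out of whole spleen. Summed intensities of 21 myeloid markers were 4372 to 5425 at day 3, against 6319 to 8104 at day 1, and 6 of the 21 fell and 1 rose. Of all genes 27% fell and 23% rose, so the count of myeloid markers that fell was near the share of all genes. Chil3, a macrophage lectin, stood at 5.68, 5.58 and 5.60 at day 3, against 7.89, 8.54 and 8.76 at day 1 (-2.78, SE 0.40, adjusted p = 2.6e-06), and Adgre1 (F4/80) fell by 1.67. Dendritic cell markers summed to 5605 to 6977 at day 3, against 7068 to 8728 at day 1 (3 of 7 fell, 1 rose). Ccl22, Ccl17, Il12b, Il6 and the interferon genes, which myeloid and dendritic cells also make, fell together with these sums, and the part of such cells in those falls was not tested. T cell markers summed to 3856 to 4181 at day 3, against 3555 to 3897 at day 1 (none of 10 passed in limma, 1 of the 10 higher at an unadjusted p under 0.05, and 0 lower). For 12 NK markers the sums were 4158 to 6406 at day 3, against 3693 to 5412 at day 1, with Klrd1 (1.15, adjusted p = 0.015) and Prf1 (0.60, adjusted p = 0.043) higher and Eomes (-0.40, adjusted p = 0.049) lower, and each of these calls was lost in some of the alternative fits. Platelet markers summed to 1489 to 1595 at day 3, against 1346 to 1641 at day 1, with 2 of 7 higher and 2 lower.

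The same days in wild-type cells, which carry the normal Irf4 gene, served to show where the drug-driven course differed. Of the 2800 genes that rose in high DOX cultures, 2123 rose in wild type (75.8% of the high DOX risers and 40.3% of the 5270 wild-type risers, which were 43.3% of all genes), and 2291 of the 3288 that fell also fell there (69.7%, and 71.9% of the 3188 that fell in wild type, 26.2% of all genes). The differences of the courses correlated at 0.68 across 12183 genes, which are not independent replicates. A test of the difference between the courses passed in 4813 genes (39.5%), with 1761 (14.5%) higher and 3052 (25.1%) lower in high DOX. The median of that difference over all genes was -0.091. With arrays centred on their medians it was 0.027, and the split was 2526 higher and 1826 lower (58% against 36.6% higher), so the balance of directions depends on the scaling. In 419 genes the courses passed the threshold in opposite directions and differed, with 155 rising and 264 falling in high DOX.

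**Figure D4:**
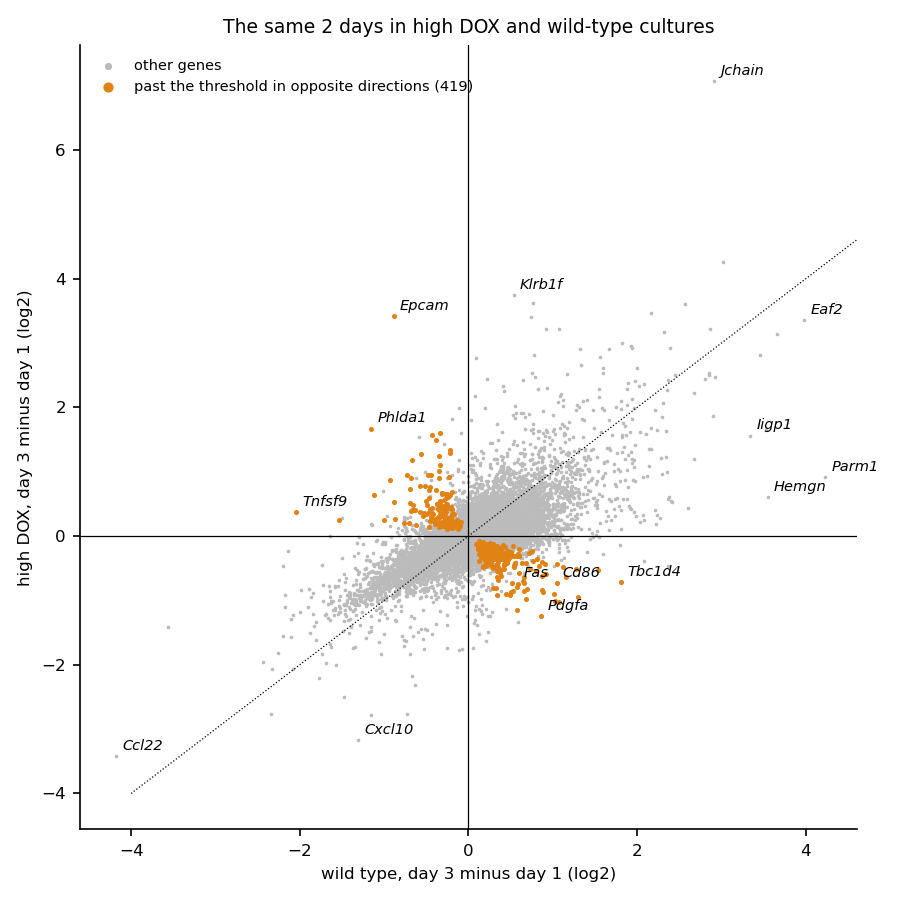
Day 3 minus day 1 in high DOX cultures (vertical axis, log2) against the same difference in wild-type cultures (horizontal axis, log2), 1 point per gene for 12183 genes, with the dotted line marking equal differences. Orange points are the 419 genes past the threshold in opposite directions, among them Epcam at 3.42 in high DOX and -0.89 in wild type.

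Part of the plasma cell list and most genes of several secretory lists had upward course differences against wild type. The plasma cell list had a median of 1.97 in high DOX and 0.96 in wild type, and 13 of 29 members differed upward, 1 downward and 15 did not pass. Jchain rose by 7.07 in high DOX and 2.91 in wild type (course difference 4.16, SE 0.44, adjusted p = 3.3e-07). Its day 3 level was 13.49 ± 0.16 in high DOX and 13.45 ± 0.023 in wild type, and its day 1 level 6.42 ± 0.34 in high DOX and 10.54 ± 0.92 in wild type (SD, n = 3 each), close together at day 3 and apart at day 1. Prdm1 rose by 2.95 in high DOX and 1.93 in wild type (1.03, SE 0.28, adjusted p = 0.0063). Epcam fell in wild type (-0.89, adjusted p = 0.0004), and its course difference was 4.30, SE 0.28, adjusted p = 1.2e-10. Eaf2 was as steep in wild type, at 3.98, and its course difference did not pass (-0.63, SE 0.26, adjusted p = 0.057). Upward course differences were found in 18 of 22 translocation genes, 19 of 25 chaperone genes, 25 of 37 N-glycosylation genes and 24 of 36 transport genes, and these counts were 21, 22, 27 and 27 with centred arrays and 18, 18, 24 and 23 with quantile normalization. Of 18 degradation genes, 10 differed upward and 2 downward (11 and 0 with centred arrays, 9 and 1 with quantile normalization). Hspa5 fell in wild type (-0.37, adjusted p = 8.6e-06), which gave a course difference of 0.49, SE 0.09, adjusted p = 0.00012, and Spcs3 rose by 0.99 in high DOX and 0.04 in wild type (0.95, SE 0.10, adjusted p = 2.2e-07). Ribosome biogenesis fell in both (median -0.80 in high DOX and -0.99 in wild type), and 16 of 34 genes differed upward, that is, fell less in high DOX.

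Several surface and signalling genes differed in course from wild type, some in direction and others only in size. Phlda1, a growth-factor response gene, rose in high DOX (1.67) and fell in wild type (-1.15), with a course difference of 2.82, SE 0.15, adjusted p = 4.3e-12. Tnfsf9, a costimulatory ligand, rose by 0.37 and fell in wild type (-2.04), with a course difference of 2.41, SE 0.17, adjusted p = 5e-10. Ccnd2 fell in both, by 0.47 in high DOX and by 2.20 in wild type (1.72, SE 0.11, adjusted p = 1.2e-10), and Bcl2l1 fell by 0.92 and by 2.18 (1.26, SE 0.20, adjusted p = 4.3e-05). Egln3, an oxygen-sensing hydroxylase, rose by 2.77 in high DOX and stood at 0.09 in wild type (2.68, SE 0.37, adjusted p = 7.6e-06). Other course differences were downward. Parm1 rose by 0.92 in high DOX and 4.23 in wild type (-3.31, SE 0.37, adjusted p = 6.6e-07). Hemgn was 0.61 in high DOX, which passed only with the replicate block, and rose by 3.55 in wild type (-2.94, SE 0.49, adjusted p = 9e-05). Gcsam, a germinal centre gene, rose by 0.43 in high DOX and 2.60 in wild type (-2.17, SE 0.25, adjusted p = 7.6e-07).

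Downward course differences against wild type were found in part of the germinal centre list and most of the interferon list. They compare changes between days, not levels. Of 19 germinal centre genes 9 differed downward and 10 did not pass (7 downward and 1 upward with centred arrays). Bcl6 rose in wild type (1.21, adjusted p = 1.6e-05) and its course difference was -1.11, SE 0.29, adjusted p = 0.0045. Cd86 fell in high DOX (-0.73) and rose in wild type (1.04), with a course difference of -1.77, SE 0.27, adjusted p = 2.7e-05. Fas did likewise, at -0.74 in high DOX and 0.58 in wild type (-1.32, SE 0.18, adjusted p = 7.5e-06). Of 13 class II genes 11 differed downward, with Ciita at -0.39 in high DOX and 0.76 in wild type (-1.15, SE 0.19, adjusted p = 5.9e-05). That count was 4 with centred arrays and 8 with quantile normalization, so for most class II genes it rests on the scaling. Of 33 interferon genes 27 differed downward (21 with centred arrays, 28 with quantile normalization). Cxcl10 fell by 3.17 in high DOX and by 1.31 in wild type, with day 3 levels of 8.55 ± 0.52 in high DOX and 8.30 ± 0.31 in wild type and day 1 levels of 11.72 ± 0.57 in high DOX and 9.61 ± 0.20 in wild type (SD, n = 3 each). Ifih1 moved by -1.63 in high DOX and 0.20 in wild type (-1.83, SE 0.27, adjusted p = 2.4e-05). Myeloid markers of wild-type cultures summed to 4335 to 4711 at day 3, against 3730 to 4161 at day 1, the reverse of the fall in high DOX, and their part in these differences was not tested.

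**Figure D5:**
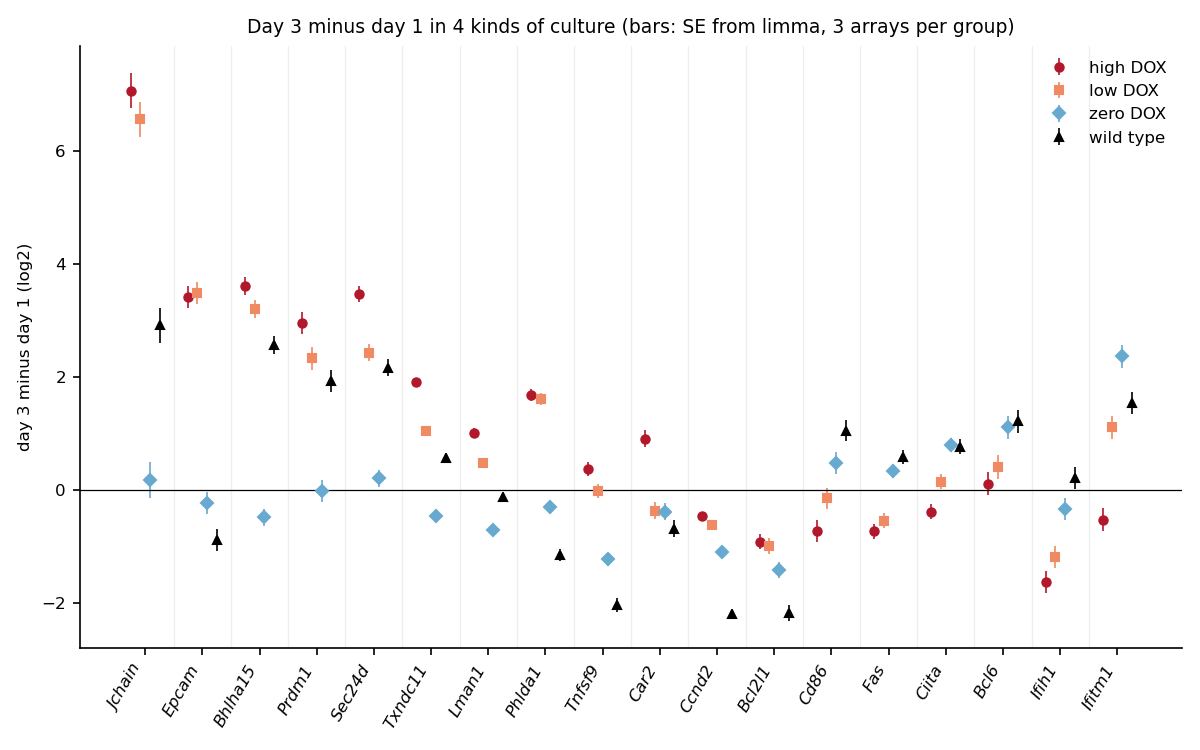
Day 3 minus day 1 (log2, with SE from limma, 3 arrays per group) of 18 genes in high DOX, low DOX, zero DOX and wild-type cultures, in that order within each gene. High and low DOX lie close together in most genes, while in Jchain zero DOX is near 0 at 0.17 and wild type at 2.91.

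Zero DOX cells are Irf4-/- and had no drug, by their labels. Against them the course differed in 3193 genes (26.2%), 1512 (12.4%) higher and 1681 (13.8%) lower in high DOX. At day 1 their replicate 2 read 10.77 on the Irf4 set that followed doxycycline, against 7.84 and 7.80 on replicates 1 and 3. The values of this comparison include that array unless stated. Of 29 plasma cell genes 23 differed upward and 1 downward. Prdm1 did not pass in zero DOX (-0.03, adjusted p = 0.93), nor did Jchain (0.17, adjusted p = 0.68), and the course differences were 2.98 (adjusted p = 3.1e-08) and 6.90 (adjusted p = 8.1e-11). Bhlha15 fell in zero DOX (-0.49, adjusted p = 0.011), and its course difference was 4.10, SE 0.22, adjusted p = 3.9e-12. Eaf2 rose even there (2.51, adjusted p = 7e-11). Upward course differences were found in 20 of 22 translocation genes, 23 of 25 chaperone genes and 16 of 18 degradation genes, and in 20, 21 and 11 of them with centred arrays. Lman1 rose by 1.00 in high DOX and fell by 0.72 in zero DOX (1.72, SE 0.12, adjusted p = 2.4e-10). Pax5 fell in high DOX (-0.78) and rose in zero DOX (0.26, adjusted p = 0.037), with a course difference of -1.04, SE 0.15, adjusted p = 9.2e-06, and 16 of 27 B cell identity genes differed downward. Among markers of other cells, 11 of 21 myeloid, 4 of 12 NK, 3 of 7 platelet and 2 of 10 T cell markers differed downward and 0 upward. Dendritic cell markers went the other way, with 2 of 7 upward and 0 downward, and 0 of 2 erythroid markers passed. In zero DOX the summed myeloid markers were 14473 to 24821 at day 3, against 9280 to 11739 at day 1, and the NK markers 10528 to 18630 at day 3, against 4554 to 6526 at day 1. The part of such cells in these differences was not tested. Among the named genes, the largest downward differences were those of the platelet chemokines. Ppbp stood at -0.38 in high DOX and rose by 3.69 in zero DOX (-4.07, SE 0.38, adjusted p = 2.6e-08), and Pf4 fell by 0.94 in high DOX and rose by 2.60 in zero DOX (-3.54, SE 0.41, adjusted p = 8.2e-07). Without the 2 day 1 arrays that went against their labels, 2704 genes differed.

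The low DOX course was the nearest. Across 12183 genes the high and low DOX differences correlated at 0.92, and 2126 of the 2800 high DOX risers also rose with low DOX (75.9% of the high DOX risers and 83.5% of the 2545 low DOX risers, which were 20.9% of all genes). The course difference passed in 141 genes (1.16%), 104 (0.854%) higher and 37 (0.304%) lower in high DOX, in 66 genes with centred arrays (41 higher, 25 lower), in 410 genes with the replicate block, and in 82 without the 2 arrays against their labels. Txndc11 rose by 1.91 in high DOX and 1.04 in low DOX (0.87, SE 0.11, adjusted p = 0.0002). Nmb, a neuropeptide gene, rose by 2.25 and 0.87 (1.38, SE 0.18, adjusted p = 0.0002), and Aldoc by 2.91 and 1.68 (1.23, SE 0.21, adjusted p = 0.0031). These 3 genes rose at both doses and more at the higher one. Car2, a carbonic anhydrase, rose with high DOX (0.90) and stood at -0.37 with low DOX (1.27, SE 0.22, adjusted p = 0.0031), and Il18 at 0.92 and -0.22 (1.14, SE 0.22, adjusted p = 0.011). Cd36, a scavenger receptor, rose less with high DOX (1.04) than with low DOX (2.35, -1.31, SE 0.21, adjusted p = 0.0024). Of 29 plasma cell genes 2 differed, both upward. No B cell identity or germinal centre gene passed in limma (at an unadjusted p under 0.05, 8 of 27 and 2 of 19 were lower and 1 of 27 was higher). Sec24d rose by 3.47 and 2.43 (1.04, SE 0.20, adjusted p = 0.011), and 6 of 36 transport genes differed upward, 2 of them with centred arrays.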

How the data were processed

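The authors deposited 1 table of linear signal intensities, 1 value per probe set and array, normalized in D-Chip with a perfect-match model as the series text states, per the labels. MAS5 is named as well in the submitters' processing notes, without a role. RNA was extracted with Trizol, per the labels' protocols. Here 16 was added to each intensity and the log2 taken, with no further normalization. Control sets and sets without 1 gene symbol were left out. Testing required 3 or more of 30 arrays above 188.2, the median of the whole table, and each of the 12183 genes was read by its tested set of highest mean. All 30 arrays entered 1 limma fit of group means (version 3.58.1, R 4.3.3, 20 residual degrees of freedom). Benjamini-Hochberg adjustment was made over the 12183 genes in each comparison. For the Irf4 probe sets, and where stated, it was made over the 21668 tested sets with 1 symbol. Courses were compared by the contrast of their day 3 minus day 1 differences. With 3 arrays in each of 2 groups, the smallest p of an exact permutation test is 0.1. Arrays give no counting depth, so the number of arrays limits the precision.

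The members and gene lists were chosen with earlier results of these data known. Named genes were the 15 largest rises and falls among called genes with non-overlapping arrays, the 8 largest each way in each course comparison, a panel of B cell regulators, and up to 4 called members of each list. Other list members were named after their values were seen. The labels do not say whether replicate numbers pair the samples, and the main fit left them unpaired. Deviations from group means correlated at 0.46, 0.60 and 0.64 between high DOX arrays of the same number. Between the others they correlated at -0.44 to -0.0036. The alternatives were other pseudocounts (1 and 64), scalings, filters, sets of arrays and probe sets, array weights, a replicate block and leaving out each array. The fit was tested on simulated data with known changes. Some items are not reported here.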

Additional observations from a re-analysis of the deposited data

Results flagged for a closer look

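The courses of high DOX and of the other cultures differed past the threshold, by a test of the difference itself in limma, in 4813 genes against wild type, in 3193 against zero DOX and in 141 against low DOX. Among the named genes, those below passed in opposite directions in the courses compared, and the values are course differences, high DOX minus the other. Against wild type, Epcam (4.30), Phlda1 (2.82), Tnfsf9 (2.41), Car2 (1.59) and Cdkn1a (1.18) rose in high DOX and fell in wild type. The reverse held for Tbc1d4 (-2.53), Pf4 (-2.23), Pdgfa (-2.10), Ifitm1 (-2.06), Cd86 (-1.77), Fas (-1.32) and Ciita (-1.15). Cdkn1a (p21), a p53 target that stops the cell cycle, stood in high DOX at 10.84, 10.69 and 10.04 at day 3, against 9.64, 9.92 and 9.87 at day 1. Its day 3 arrays lay above those of day 1, while wild type fell by 0.47.

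Against zero DOX, Bhlha15 (4.10), Phlda1 (1.98), Tnfsf9 (1.60), Lratd2 (1.30) and Car2 (1.29) rose in high DOX and fell in zero DOX. Pf4 (-3.54), Lyz1 (-2.90), Ifitm1 (-2.89), Cd86 (-1.20), Ciita (-1.18), Fas (-1.07) and Pax5 (-1.04) fell in high DOX and rose in zero DOX. Against low DOX this was so for Lratd2 (1.19), higher in high DOX, and Ifitm1 (-1.64), lower there. The Lratd2 difference was lost in 4 alternatives, among them without the 2 arrays against their labels (1.05, adjusted p = 0.062). Groups of 3 arrays were too small to look for single arrays that stand apart.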

How the results depend on the processing

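The 6088 genes changed between the days ranged over 5504 to 5681 when 1 array was left out, and the course differences over 4042 to 5034 against wild type, 2600 to 3106 against zero DOX and 72 to 179 against low DOX. Taking every probe set as a feature gave 10563, 7774 and 5248 in the first 3 comparisons, since more features were tested. The low DOX comparison was the least settled: 141 genes became 66 with centred arrays, 23 with only the arrays of the groups compared, 82 without the 2 arrays against their labels, 410 with the replicate block and 882 with array weights, and it fell to 76, 73, 79, 86 or 72 without high DOX day 1 replicate 1, high DOX day 3 replicate 1 or 2, low DOX day 1 replicate 2 or low DOX day 3 replicate 3. The cause was not tested. The replicate block gave 6727, 5756 and 3997 genes in the other comparisons, and added the calls of Hspa5, Id3, Gbp2b, Gzma and Hemgn between the high DOX days. Of 181 named genes, 155 kept their side of the threshold and direction between the high DOX days under every alternative. Calls lost in some were Bach2, Ciita, Cxcr4, Myc, Gcsam, Tnfsf9, Tbc1d4, Lyz1, Pf4, Ifitm1, Eomes, Gp9, Prf1, Klrd1, Mxd1, Siglech, Parm1, Itga2b and Mpzl2. Of 48 genes named for course differences 38 held under every alternative, and the 89 lost calls were all against low DOX (Fam171a1, Gbp2b, Gzma, Havcr1, Il18r1, Klra8, Lratd2, Mpo, Pon3 and Ppbp). No called difference of a named gene changed its direction, while Bcl6, Ebf1 and Il18r1, which did not pass, took either sign. The balance of directions turned against wild type with centred arrays (1761 higher and 3052 lower, against 2526 and 1826) and against zero DOX with quantile normalization (1512 and 1681, against 1633 and 1560).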

Other observations

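Metabolic genes were also compared between the courses. Of all genes, 14.5% differed upward and 25.1% downward against wild type, and 12.4% upward against zero DOX. Glycolysis genes differed upward in high DOX in 10 of 16 tested cases against wild type and in 13 of 16 against zero DOX. Tpi1, triose phosphate isomerase, stood at 13.30, 13.20 and 13.32 at day 3, against 12.62, 12.61 and 12.61 at day 1, and its course difference was 0.51, SE 0.10, adjusted p = 0.00034 against wild type and 0.94, SE 0.10, adjusted p = 1.6e-07 against zero DOX, where it fell (-0.28, adjusted p = 0.0017). Genes of amino acid supply and the integrated stress response differed upward in 16 of 25 cases against zero DOX and in 9 of 25 against wild type. Asns rose in high DOX (0.69) and wild type (0.88) and stood at -0.35 in zero DOX (1.05, SE 0.21, adjusted p = 0.00061). Cholesterol synthesis had 8 of 20 genes differing upward against zero DOX. Against wild type 1 differed upward and 5 downward, and the downward count was near the share of all genes. Elovl6, a fatty acid elongase, rose in high DOX, at 9.76, 9.52 and 9.47 at day 3, against 9.19, 8.73 and 8.55 at day 1, and fell in wild type (-0.46, adjusted p = 0.0073), with a course difference of 1.21, SE 0.20, adjusted p = 8.2e-05. Among Myc antagonists, Mxd4 rose by 0.93 in high DOX and 2.12 in wild type (-1.19, SE 0.14, adjusted p = 8.9e-07), whereas Mxi1 was steeper in high DOX (2.11 against 1.12, 1.00, SE 0.20, adjusted p = 0.00055).

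Of 12 tested NK markers, 2 differed downward between the high and low DOX courses, Gzma and Klra8, against 0.304% of all genes, and 0 differed upward. Gzma, a cytotoxic granule protease, stood in high DOX at 8.81, 9.66 and 8.71 at day 3, against 8.67, 8.81 and 8.44 at day 1, with overlapping arrays, and rose by 2.29 in low DOX (-1.87, SE 0.39, adjusted p = 0.017). Gbp2b, an interferon-induced GTPase, stood at -0.37 in high DOX and rose by 1.18 in low DOX (-1.56, SE 0.27, adjusted p = 0.0031). Klra8, an NK receptor, stood at 0.27 in high DOX and 1.30 in low DOX (-1.03, SE 0.25, adjusted p = 0.042), and Il18r1, the IL-18 receptor, at -0.03 and 1.20 (-1.23, SE 0.29, adjusted p = 0.034). Each of these calls was lost in some alternatives. The summed NK markers in high DOX were 4158 to 6406 at day 3, against 3693 to 5412 at day 1, and the part of such cells was not tested.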
